A study of Mus musculus with 100 samples.

Results

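Axin2, Lef1, Tcf7, Tcf7l1, Sp5, T, Cdx1, Cdx2 and Nkd1 are genes of the Wnt and beta-catenin pathway, and their expression was followed here in mouse pluripotent cells grown with and without an inhibitor of GSK3. The 9 genes were chosen by name, as targets and DNA-binding partners of beta-catenin, and all 9 were found among the 25965 genes of the expression table. Without a Wnt signal, a complex of Axin, Apc, Ck1 and GSK3 phosphorylates beta-catenin and marks it for destruction. When GSK3 is inhibited or Wnt binds its receptors, beta-catenin accumulates, enters the nucleus and binds the TCF and LEF proteins at their target genes. In mouse embryonic stem cells this pathway is known for relieving repression by Tcf7l1 and for supporting self-renewal, and in the embryo it is known for inducing the primitive streak.

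The data comprised 18 RNA-seq libraries, 3 biological replicates for each of 6 groups. TX 2i ESCs are cells of TX1072, a line of female embryonic stem cells (ESCs) from a BL6 mother and CAST father, grown in medium with fetal bovine serum, LIF and 2i, which is the GSK3 inhibitor CHIR99021 together with the MEK inhibitor PD0325901. The KSR-iPSC lines are induced pluripotent stem cells kept in medium with knockout serum replacement (KSR) and LIF, without either inhibitor, and each line is 1 picked colony. Of these lines, F KSR2 and F KSR4 are female, whereas M KSR3 and M KSR5 are male. They were reprogrammed with a doxycycline-inducible Yamanaka cassette from mouse embryonic fibroblasts (MEFs) of 1 embryo per sex, bred from the same pair of strains, and the picked colonies were plated on feeder cells. The starting female MEFs were sequenced as well, and no library of male MEFs was analysed here. KSR-iPSCs and TX 2i ESCs differ in GSK3 inhibition, MEK inhibition, serum, cell line and origin, and these cannot be told apart. With 1 clone per line, p-values measure the spread between libraries of these lines.

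Values are log2 RPM, the reads of a gene relative to all reads on genes of the library, without correction for gene length. Libraries held 13183036 to 17921280 reads on genes, 1 read stood at -4.29 to -3.89, and genes with no read carry a value equal to 0.9 read. Groups were compared with limma on these values, and a gene was called at an adjusted p below 0.05 over all genes tested. All 9 genes passed the filter, a value above 0 in at least 3 libraries, which left 14632 genes. Reads of 10 genes of naive pluripotency summed to 2677 to 4696 RPM in KSR-iPSCs, 5114 to 6557 RPM in TX 2i ESCs and 136 to 192 RPM in MEFs. Those of 12 fibroblast genes summed to 16.2 to 184 RPM in KSR-iPSCs, 42.9 to 56.3 RPM in TX 2i ESCs and 21675 to 33695 RPM in MEFs, so each group carried the markers of its label. F KSR4 library 2 stood apart from the other female KSR libraries in T and Lef1, and M KSR5 library 3 had the highest fibroblast sum of the pluripotent libraries, so where a call or the direction of a difference changed without these 2 libraries, an alternative chosen after the data were seen, that value is given too.

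The targets Axin2, Sp5 and Cdx1 were lower in KSR-iPSCs than in TX 2i ESCs, and the remaining 6 genes were not called in either direction. The mean of the 4 KSR lines was 1.13 lower for Axin2, 2.46 lower for Cdx1 and 4.86 lower for Sp5 on the log2 scale. In linear units, the mean level in KSR-iPSCs against TX 2i ESCs was 7.55 against 15.5 RPM for Axin2, 5.86 against 28.0 RPM for Cdx1 and 1.08 against 12.4 RPM for Sp5. Thus 3 of the 9 genes were called lower and 0 higher. Of all genes tested, 23.0% were called in either direction and 12.0% were called lower. The median difference was -0.54 over the 9 genes and -0.0045 over all genes tested. In these bulk libraries, fewer cells expressing a gene and less of its RNA per cell cannot be told apart.

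Axin2 (ENSMUSG00000000142, GRCm38 chr11:108920349-108950783, plus strand) encodes a scaffold of the destruction complex and is a feedback target of the pathway in many tissues. Its level was 4.09, 3.93 and 3.83 log2 RPM in the 3 TX 2i ESC libraries. The 12 KSR-iPSC libraries had a lowest level of 1.33, a median of 2.996 and a highest of 3.43 log2 RPM. Every KSR-iPSC library was thus below every TX 2i ESC library, as were 6.21% of all genes tested, and 3.94% had every KSR-iPSC library above. The difference of -1.13 had an SE of 0.32 and an adjusted p of 0.0178 in limma. Leaving out a single TX 2i ESC library, whichever of the 3, ended the call, with differences of -1.18 to -1.06 and adjusted p-values of 0.0545 to 0.0849. The MEFs had the lowest group mean, 2.01 ± 0.22 log2 RPM (SD, n = 3).

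Sp5 (ENSMUSG00000075304, chr2:70474923-70477729, plus strand) encodes a zinc-finger transcription factor and is a direct target of beta-catenin in ESCs. It was read 415, 129 and 111 times in the TX 2i ESC libraries, which gave levels of 4.54, 2.79 and 2.82 log2 RPM. Of the KSR lines, F KSR2 had 24, 3 and 61 reads and F KSR4 had 42, 0 and 36, against 0, 1 and 3 for M KSR3 and 0, 7 and 42 for M KSR5. The replicates of a KSR line were therefore uneven, with at least 1 library of 3 reads or fewer in each line, and in M KSR3 all 3 were low. No KSR-iPSC library reached the lowest TX 2i ESC library, and the highest KSR level was 1.89 log2 RPM in F KSR2 library 3. The difference was -4.86 (SE 1.15, adjusted p = 0.00532), and its size depends on the value given to libraries without reads.

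TCF and LEF proteins can bind at the promoters of their targets, and the 250 bases before the annotated start of each gene were taken from RefSeq (GRCm38.p6), which held 12 windows for these genes, Cdx1 excepted. Sp5 and Axin2 are shown since both were lower in KSR-iPSCs, and T since it is a known target that was not. The letters CTTTGA, the core of the TCF and LEF motif, and its extension CTTTGAT were searched on both strands and are in capitals, so that each CTTTGAT also counts as a CTTTGA. The windows are chr2:70474673-70474922 for Sp5, chr17:8434173-8434422 for T and chr11:108920099-108920348 for Axin2, all on the plus strand and 5′ to 3′, with no annotated exon inside.
Sp5: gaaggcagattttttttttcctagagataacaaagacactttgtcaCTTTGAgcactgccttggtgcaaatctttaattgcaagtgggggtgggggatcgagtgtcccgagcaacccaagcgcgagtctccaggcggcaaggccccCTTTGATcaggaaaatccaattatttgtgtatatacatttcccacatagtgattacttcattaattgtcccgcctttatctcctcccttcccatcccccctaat
T: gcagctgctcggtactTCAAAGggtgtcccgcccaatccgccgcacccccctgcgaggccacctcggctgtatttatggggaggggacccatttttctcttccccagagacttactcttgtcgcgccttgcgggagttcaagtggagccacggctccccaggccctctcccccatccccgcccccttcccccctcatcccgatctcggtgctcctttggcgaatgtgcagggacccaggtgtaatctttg
Axin2: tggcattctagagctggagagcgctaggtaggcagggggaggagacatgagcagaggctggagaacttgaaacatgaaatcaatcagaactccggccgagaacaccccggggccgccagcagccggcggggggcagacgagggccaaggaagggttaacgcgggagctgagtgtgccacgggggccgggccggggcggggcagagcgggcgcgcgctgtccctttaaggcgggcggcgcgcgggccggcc
Sp5 held CTTTGAT at -104 from its start and a further CTTTGA at -204. T held CTTTGA on the reverse strand at -234, printed here as TCAAAG, and the Axin2 window held none. A window of Lef1 had CTTTGA on the reverse strand at -120 and -180. Over all 32851 RefSeq windows of this length, 3.21% held CTTTGAT and 13.8% held CTTTGA on either strand. A match is a stretch of letters and not a measured binding site, and no match says only that the letters are not in this window.

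Cdx1 (ENSMUSG00000024619, chr18:61018862-61036199, minus strand) encodes a caudal-type homeobox factor of the posterior embryo and responds directly to Wnt. It reached 5.07, 4.71 and 4.60 log2 RPM in TX 2i ESCs. In the 12 KSR-iPSC libraries the lowest level was -0.05, the median 2.59 and the highest 3.23 log2 RPM. No value of KSR-iPSCs overlapped with those of TX 2i ESCs, and the difference was -2.46 (SE 0.44, adjusted p = 0.000685). The call held without each library in turn. Among the KSR lines, F KSR2 was the most uneven, with 0.84, -0.05 and 3.10 log2 RPM.

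**Figure D1:**
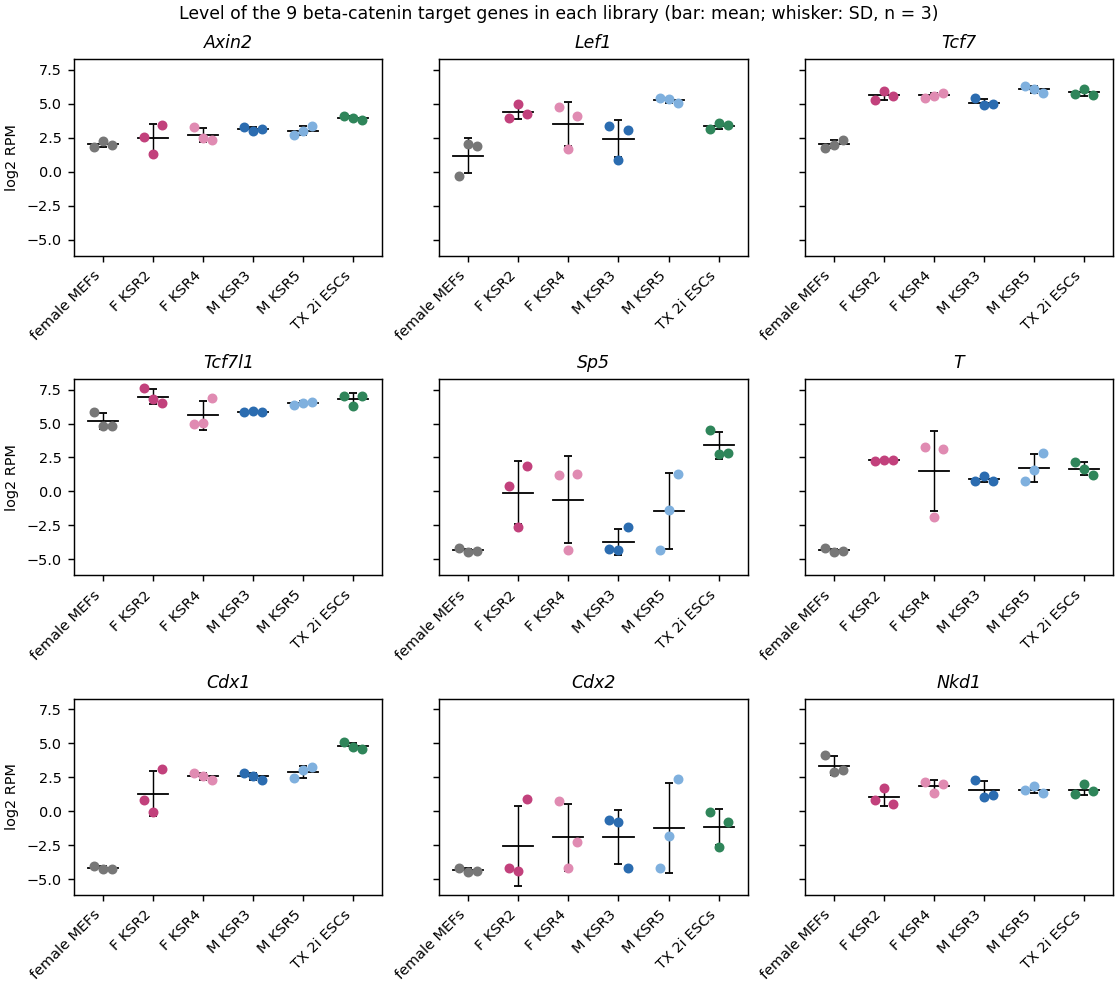
Level of each of the 9 genes (log2 RPM, vertical axis) in every library of the 6 groups, with a point per library, a bar at the mean of 3 libraries and whiskers for the SD. Axin2, Sp5 and Cdx1 are the genes for which all 12 KSR-iPSC libraries lie below the 3 TX 2i ESC libraries.

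T, Cdx2, Nkd1 and the TCF and LEF factors did not pass the threshold between KSR-iPSCs and TX 2i ESCs. T (ENSMUSG00000062327, chr17:8434423-8442496, plus strand) encodes brachyury, the defining transcription factor of the primitive streak. Its levels were 2.15, 1.63 and 1.20 log2 RPM in TX 2i ESCs. F KSR2 had 2.27, 2.29 and 2.32 log2 RPM and F KSR4 had 3.28, -1.85 and 3.09, while M KSR3 was at 0.80, 1.14 and 0.78 and M KSR5 at 0.78, 1.57 and 2.80. The levels of TX 2i ESCs lay in the middle of the KSR-iPSCs, and the single low value, F KSR4 library 2, rested on 5 reads against 176 and 126 in its replicates. The difference was -0.05 (SE 0.73, adjusted p = 0.977). Without F KSR4 library 2 and M KSR5 library 3 it was 0.23 (adjusted p = 0.602).

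Cdx2 (ENSMUSG00000029646, chr5:147300805-147307270, minus strand), a homeobox factor of the trophectoderm and the hindgut, was near the limit of detection. It had 17, 3 and 9 reads in TX 2i ESCs, 0 to 30 reads in the female KSR libraries and 1 to 87 reads in the male ones. The highest count, 87 reads, was in M KSR5 library 3, and the groups overlapped. The difference of -0.72 had an SE of 1.27 (adjusted p = 0.744). Only F KSR2 library 3 (0.87), F KSR4 library 1 (0.73) and M KSR5 library 3 (2.33) were above 0 log2 RPM. The gene passed the filter through these libraries alone, and did not pass it without F KSR4 library 2 and M KSR5 library 3.

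Nkd1 (ENSMUSG00000031661, chr8:88521344-88594887, plus strand) encodes a feedback inhibitor that binds Dishevelled. It stood at 1.24, 1.98 and 1.52 log2 RPM in TX 2i ESCs and between 0.55 and 2.31 log2 RPM in the 12 KSR-iPSC libraries. The 4 KSR lines and TX 2i ESCs thus shared 1 range, with a difference of -0.10 (SE 0.36, adjusted p = 0.888). The feedback regulators Axin2 and Nkd1 therefore gave unlike values in this comparison, Axin2 called lower and Nkd1 not called, and the difference between these 2 genes was not tested. Reads of genes within 5 Mb of Nkd1 with a parental SNP were 65.5% maternal in F KSR4 and 67.0% in M KSR3. This share was 50.2 to 56.4% in the other groups. The part of this inequality in the level of Nkd1 was not tested.

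**Figure D2:**
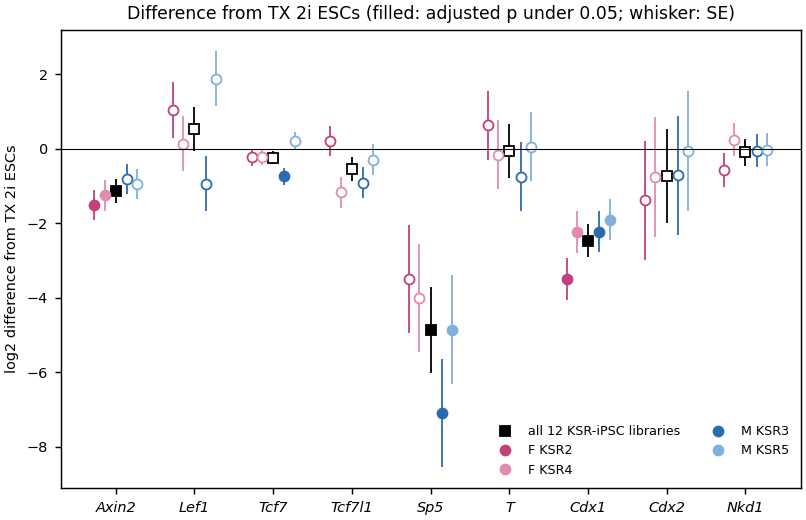
Difference in log2 RPM from TX 2i ESCs (vertical axis, 0 means equal levels) for the 9 genes (horizontal axis), with squares for the 12 KSR-iPSC libraries together, circles for each line, whiskers of 1 SE from limma and filled symbols for an adjusted p below 0.05. Sp5 and Cdx1 lie lowest, Axin2 is filled for both female lines, and Lef1 lies above 0 in M KSR5 and below 0 in M KSR3 without passing the threshold.

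Among the DNA-binding factors, Tcf7 and Tcf7l1 were the most abundant in pluripotent cells and Lef1 the most variable between lines. Here levels are compared between genes as RPM per kb of merged exons. Tcf7l1, mostly a repressor of pluripotency genes, had 28.7 ± 7.80 RPM per kb in TX 2i ESCs (SD, n = 3 in this and each group) and 14.9 ± 0.22 to 34.2 ± 14.4 in the KSR lines. Tcf7, a factor that can activate with beta-catenin, had 21.9 ± 3.80 RPM per kb in TX 2i ESCs and 13.2 ± 2.61 to 25.6 ± 4.64 in the KSR lines. Lef1, an activating partner, had 1.19 ± 0.18 RPM per kb in TX 2i ESCs, with 0.79 ± 0.52 in M KSR3 and 4.37 ± 0.56 in M KSR5 at the ends of the range of the KSR lines. The remaining family member, Tcf7l2, was at 0.59 ± 0.11 RPM per kb in TX 2i ESCs, 1.51 to 1.61 as means of the KSR lines and 2.54 ± 0.31 in MEFs. Tcf7l2 was called higher in KSR-iPSCs than in TX 2i ESCs, by 1.40 on the log2 RPM scale (SE 0.22, adjusted p = 0.000226).

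**Figure D3:**
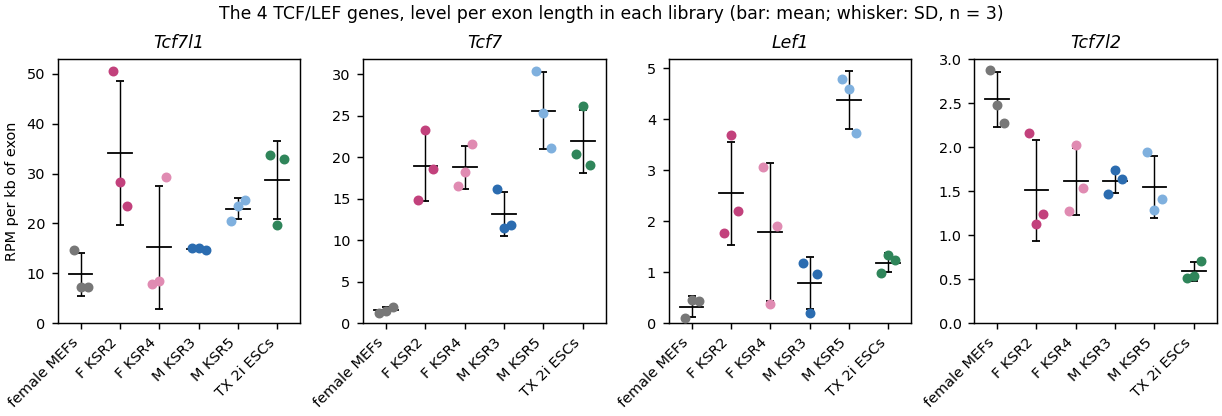
Level of 4 genes of the TCF and LEF family in RPM per kb of exon (vertical axis, a scale of its own for each gene) in the 6 groups, with a point per library, a bar at the mean of 3 libraries and whiskers for the SD. Tcf7l1 and Tcf7 lead in the pluripotent groups, while Tcf7 is at 1.56 RPM per kb in MEFs and Tcf7l2 is lowest in TX 2i ESCs.

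Tcf7 (ENSMUSG00000000782, chr11:52252371-52283014, minus strand) was at 5.74, 6.10 and 5.65 log2 RPM in TX 2i ESCs, at 5.41, 4.92 and 4.95 in M KSR3 and at 6.32, 6.05 and 5.79 in M KSR5. All 3 libraries of M KSR3 were below those of TX 2i ESCs, while those of M KSR5 overlapped with them. The share of all genes with such a separation of single groups was not counted, here and for Lef1 and Tcf7l1 below. In the 6 female KSR libraries it ranged from 5.29 to 5.93 log2 RPM. For KSR-iPSCs as a whole the difference from TX 2i ESCs was -0.24 (SE 0.18, adjusted p = 0.374).

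Lef1 (ENSMUSG00000027985, chr3:131110471-131224356, plus strand) was at 3.11, 3.55 and 3.45 log2 RPM in TX 2i ESCs. F KSR2 had 3.95, 5.02 and 4.27 log2 RPM and F KSR4 had 4.75, 1.71 and 4.07, against 3.38, 0.84 and 3.09 for M KSR3 and 5.40, 5.33 and 5.04 for M KSR5. M KSR5 lay above all other groups in each library, and library 2 of F KSR4 and of M KSR3 were each far below their replicates. The difference from TX 2i ESCs was 0.53 (SE 0.59, adjusted p = 0.567), or 0.79 (adjusted p = 0.269) without F KSR4 library 2 and M KSR5 library 3.

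Tcf7l1 (ENSMUSG00000055799, chr6:72626378-72789254, minus strand) was at 7.05, 6.28 and 7.01 log2 RPM in TX 2i ESCs. F KSR2 had 7.63, 6.80 and 6.53 log2 RPM and F KSR4 had 4.94, 5.04 and 6.85, against 5.88, 5.89 and 5.85 for M KSR3 and 6.33, 6.53 and 6.60 for M KSR5. The 3 libraries of M KSR3 were nearly equal and below TX 2i ESCs, and F KSR4 was split, with libraries 1 and 2 near the level of MEFs and library 3 near that of TX 2i ESCs. The difference was -0.54 (SE 0.33, adjusted p = 0.262). Without F KSR4 library 3 it was -0.69 and passed the threshold (adjusted p = 0.0386).

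Line by line, 9 of the 36 pairs of gene and line were called against TX 2i ESCs, all of them lower in the line. Cdx1 was called in each line, with differences of -3.50 for F KSR2 (adjusted p = 0.000692), -2.23 for F KSR4 (adjusted p = 0.0122), -2.22 for M KSR3 (adjusted p = 0.00835) and -1.90 for M KSR5 (adjusted p = 0.0242). In F KSR2 and M KSR3 these calls held in all 13 alternatives run. In F KSR4 the call was lost without TX 2i ESC library 1 (adjusted p = 0.0512), and in M KSR5 it held in 8 of 14, with adjusted p-values of 0.0504 to 0.0938 without the filter, without any 1 of the TX 2i ESC libraries and without M KSR5 library 1 or 2. Axin2 was called in the female lines, at -1.50 in F KSR2 (adjusted p = 0.0218) and -1.25 in F KSR4 (adjusted p = 0.0473). The call in F KSR2 was lost without its library 2 (adjusted p = 0.110) or TX 2i ESC library 1 or 2 (adjusted p = 0.0750 and 0.0609). That in F KSR4 held in 5 of 14 alternatives, and was lost without the filter (adjusted p = 0.0767), with median-ratio scaling (0.0783), in a fit of the 15 pluripotent libraries (0.0558), without F KSR4 library 2 (0.0925) or 3 (0.118), without any 1 of the TX 2i ESC libraries (0.0950 to 0.132) and, at -1.13, without F KSR4 library 2 and M KSR5 library 3 (0.0941). In the male lines Axin2 had differences of -0.81 in M KSR3 and -0.94 in M KSR5, which did not pass (adjusted p = 0.169 and 0.124). Genes near Axin2 were read unequally from the parental alleles in M KSR3, as given below, and the part of this in its level was not tested. Sp5 was called in the male lines, at -7.09 in M KSR3 (adjusted p = 0.00206) and -4.85 in M KSR5 (adjusted p = 0.0271), with -3.49 and -3.99 in F KSR2 and F KSR4 (adjusted p = 0.127 and 0.0725). The call in M KSR3 held in all 13 alternatives, with a difference of -3.43 at a pseudocount of 1 RPM. That in M KSR5 held in 8 of 14, and was lost without the filter (adjusted p = 0.0659), without M KSR5 library 1 (0.142) or 2 (0.0686) and without any 1 of the TX 2i ESC libraries (0.0518 to 0.103). The remaining call was Tcf7 in M KSR3, at -0.74 (adjusted p = 0.0252), which was lost without M KSR3 library 2 (0.103) or 3 (0.0964) or TX 2i ESC library 1 (0.0512) or 2 (0.116). The share of all genes called lower was 6.63% for F KSR2, 9.57% for F KSR4, 10.6% for M KSR3 and 8.84% for M KSR5. All 4 comparisons share the same 3 TX 2i ESC libraries, and 3 pairs were called without TX 2i ESC library 1 and 4 without library 2.

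TX1072 is female, so the female lines were also compared alone, where the same 3 genes were lower. Axin2 differed by -1.37 (SE 0.35, adjusted p = 0.0127), Cdx1 by -2.86 (SE 0.48, adjusted p = 0.000708) and Sp5 by -3.74 (SE 1.26, adjusted p = 0.0481). Of all genes, 17.8% were called in either direction and 10.2% lower. The call of Sp5 held in 8 of 17 alternatives. It was lost without the filter on low values (adjusted p = 0.109), with median-ratio scaling (0.0521), in the fit of 15 libraries (0.0623), without F KSR2 library 1 (0.0613) or 2 (0.0975), without F KSR4 library 2 (0.0648) and without any 1 of the TX 2i ESC libraries (0.0978 to 0.190). Without TX 2i ESC library 1 the call of Axin2 was lost too (adjusted p = 0.0600), while that of Cdx1 held in all 17. T, at 0.24, was not called (adjusted p = 0.882), and without F KSR4 library 2 and M KSR5 library 3 it was called at 1.08 (adjusted p = 0.0266). Low T was a reason for choosing F KSR4 library 2, so the latter value is no independent test.

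Between female and male KSR-iPSCs 0 of the 9 genes were called by limma, where 2.87% of the 13609 genes tested were. In this fit of 12 libraries 0 of the 9 had an unadjusted p below 0.05, and 0 were called by limma-voom on recovered reads. The limma fit of 18 libraries also called 0 of the 9, and there Sp5 had an unadjusted p of 0.0441 (adjusted p = 0.183). Sp5 was at 2.23 for female minus male lines (SE 1.19, adjusted p = 0.330), Cdx1 at -0.81 (SE 0.46, adjusted p = 0.366), Cdx2 at -0.68 (adjusted p = 0.810) and T at 0.59 (SE 0.69, adjusted p = 0.691). Sp5 ranged from 0 to 61 reads in the 6 female and from 0 to 42 reads in the 6 male libraries, and T from 5 to 176 and from 30 to 120 reads. The ranges of the sexes overlapped for both genes, and the extremes included F KSR4 library 2 and M KSR5 library 3. Without these 2 libraries Sp5 was higher in female lines by 3.80 (adjusted p = 0.0351) and T by 1.63 (adjusted p = 0.0110), where 665 of all genes were called. The libraries left out held the lowest female and the highest male values of both genes. Low T was also a reason for choosing F KSR4 library 2. These values are therefore no test of a difference between the sexes, and libraries of a line are not replicates of a sex. With all 12 libraries, the other members ranged from -0.50 for Axin2 to 0.12 for Lef1 and Tcf7l1.

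Within a sex, the male lines differed in Lef1 and Tcf7, and the female lines in none of the 9 genes. Lef1 was lower in M KSR3 than in M KSR5 by 2.82 (fitted difference -2.82, SE 0.74, adjusted p = 0.0396) and Tcf7 by 0.96 (fitted difference -0.96, SE 0.23, adjusted p = 0.0225), where 4.48% of all genes were called. The libraries of the 2 lines did not overlap for either gene, and the share of all genes for which this held was not counted. Both calls were lost without M KSR3 library 2 or 3 or without M KSR5 library 1 or 2, with adjusted p-values of 0.076 to 0.221 for Lef1 and 0.0807 to 0.120 for Tcf7, and that of Lef1 also without M KSR5 library 3 (adjusted p = 0.0647). Between F KSR2 and F KSR4, where 1.14% of all genes were called, 0 of the 9 were called by limma or by limma-voom and 2 had an unadjusted p below 0.05. Tcf7l1 differed by 1.38 (adjusted p = 0.109) and Cdx1 by -1.27 (adjusted p = 0.262). Tcf7l1 was called, at 2.00 (adjusted p = 0.00707), without F KSR4 library 3, and Cdx1, at -2.17 (adjusted p = 0.0187), without F KSR2 library 3. Set against each other, a female and a male line differed in 0 of the 9 genes in each of the 4 pairs, while 10.7% of all genes were called between F KSR2 and M KSR3, 2.82% between F KSR2 and M KSR5, 13.1% between F KSR4 and M KSR3 and 2.34% between F KSR4 and M KSR5. At an unadjusted p below 0.05 these pairs had 5, 1, 2 and 2 of the 9 genes. The share of all genes at that unadjusted threshold is not given, here or for F KSR2 against F KSR4. The shares of all genes named are at the adjusted threshold, so the unadjusted counts cannot be set against them.

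Against the MEFs, Tcf7, T and Cdx1 were higher in every pluripotent group and Nkd1 was lower in each. Tcf7 was at 1.72, 1.99 and 2.32 log2 RPM in MEFs, and the pluripotent groups were higher by 3.08 in M KSR3 (adjusted p = 2.61e-09) to 4.04 in M KSR5 (adjusted p = 8.18e-11). Nkd1 was at 4.16, 2.91 and 2.998 log2 RPM in MEFs, above each of the 15 pluripotent libraries, with differences from -2.34 in F KSR2 (adjusted p = 0.000198) to -1.52 in F KSR4 (adjusted p = 0.00681). How many of all genes were separated in this way was not counted. Of the 9 genes, 6 were higher in F KSR2 beside 38.0% of all genes, 5 in F KSR4 beside 34.6%, 4 in M KSR3 beside 39.4%, 6 in M KSR5 beside 39.0% and 7 in TX 2i ESCs beside 37.5%. Nkd1 was the 1 gene called lower in each group, beside 29.0% of all genes for F KSR2, 31.2% for F KSR4, 28.2% for M KSR3, 28.9% for M KSR5 and 29.0% for TX 2i ESCs.

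Sp5, T and Cdx2 had 0 reads in all 3 MEF libraries, so that folds over MEFs are lower bounds against a floor of 3 reads per library. T was higher by at least 37.5-fold in F KSR4, 29.7-fold in F KSR2, 23.6-fold in M KSR5, 19.9-fold in TX 2i ESCs and 11.5-fold in M KSR3. Without M KSR5 library 3 that of M KSR5 was 14.2-fold. Sp5 in TX 2i ESCs was at least 75.4-fold higher, against at least 10.6-fold in F KSR2, 9.62-fold in F KSR4 and 5.72-fold in M KSR5, and M KSR3 was at or under the floor. Single libraries carried much of these bounds, since library 3 held 61 of the reads of F KSR2 and 42 of those of M KSR5. Without library 3, the bound was 4.57-fold in F KSR2 and 1.19-fold in M KSR5, and without TX 2i ESC library 1 it was 42.4-fold in TX 2i ESCs. Sp5 was called in TX 2i ESCs (adjusted p = 0.000154), F KSR2 (adjusted p = 0.0159) and F KSR4 (adjusted p = 0.0315), and a pseudocount of 1 RPM ended the calls in the female lines (adjusted p = 0.0562 and 0.0691). The call in F KSR2 was also lost without its library 3 (adjusted p = 0.0836). That in F KSR4 held in 5 of 13 alternatives, and was also lost without the filter (adjusted p = 0.0702), with limma-voom (0.0915), without any 1 of the MEF libraries (0.0565 to 0.0655) and without F KSR4 library 1 (0.132) or 3 (0.138). Cdx2 was called in none of the groups. Cdx1 had 1 read in each MEF library, and its ratio to MEFs ran from 66.2 in F KSR2 (95% exact interval 22.3 to 324) to 516 in TX 2i ESCs (95% exact interval 176 to 2507), which covers counting error alone. Library 3 held 141 of the 191 Cdx1 reads of F KSR2, and the ratio without it was 25.1.

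Axin2 was called higher than in MEFs in TX 2i ESCs, by 1.94 (SE 0.41, adjusted p = 0.000456), and in the male lines M KSR3, by 1.12 (adjusted p = 0.0216), and M KSR5, by 0.99 (adjusted p = 0.0397). In F KSR2 and F KSR4 it differed from MEFs by 0.43 and 0.69 (adjusted p = 0.355 and 0.145). The male calls were lost with median-ratio scaling (adjusted p = 0.0822 and 0.122) and without MEF library 1 (0.0599 and 0.0990). That in M KSR3 was also lost without its library 1 (adjusted p = 0.0598). That in M KSR5 was also lost without the filter (adjusted p = 0.0600), MEF library 3 (0.0720), M KSR5 library 2 (0.0758) or 3 (0.128) and, at 0.82, F KSR4 library 2 and M KSR5 library 3 (0.120). Tcf7l1 was higher than in MEFs in F KSR2 by 1.81 (adjusted p = 0.000917), in TX 2i ESCs by 1.60 (adjusted p = 0.00247) and in M KSR5 by 1.31 (adjusted p = 0.00978), while in F KSR4 and M KSR3, at 0.43 and 0.70, it did not pass (adjusted p = 0.365 and 0.144). Lef1 was higher by 2.18 to 4.06 in every group other than M KSR3, which was at 1.25 (adjusted p = 0.146). MEF library 1 was itself low in Lef1, with -0.33 log2 RPM against 2.01 and 1.90, and without it the calls in F KSR4 and TX 2i ESCs were lost (adjusted p = 0.0701 and 0.0966), as was that in F KSR4 without F KSR4 library 1 (adjusted p = 0.0677).

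Ordered by group mean, TX 2i ESCs came first for Axin2, Sp5, Cdx1 and Cdx2, M KSR5 for Lef1 and Tcf7, F KSR2 for Tcf7l1 and T, and MEFs for Nkd1. Cdx1 in TX 2i ESCs was the top mean that differed from its neighbour M KSR5 (adjusted p = 0.0242), together with Nkd1 in MEFs against F KSR4 (adjusted p = 0.00681). Axin2 fell from 3.95 ± 0.13 log2 RPM in TX 2i ESCs to 3.14 ± 0.13 in M KSR3, 3.01 ± 0.32 in M KSR5, 2.70 ± 0.49 in F KSR4, 2.45 ± 1.05 in F KSR2 and 2.01 ± 0.22 in MEFs (SD, n = 3), and no neighbours in this order differed past the threshold. At the lower end, MEFs differed from the next group for Tcf7, T and Cdx1. By the root mean square difference of the 6 centred group means, the profile most like that of Axin2 was that of Fuk (0.08), followed by Arhgef18 (0.13) and Jak3 (0.14), where the median gene was at 0.80. For Tcf7l1 they were Tmem108 (0.14), Fgf11 (0.17) and Cth (0.19), with a median gene at 0.84, and for T they were Aurkc (0.12), Zswim5 (0.12) and Fut9 (0.26), with a median gene at 2.21.

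Further genes of the pathway were called in both directions between KSR-iPSCs and TX 2i ESCs, where 1615 of the 14632 genes tested were higher and 1757 lower in KSR-iPSCs. Of 13 targets and feedback regulators beyond the 9, 12 were tested, of which 2 were higher in KSR-iPSCs, 2 lower and 8 not called, with a median difference of 0.03. The secreted inhibitor Dkk1 had 0 reads in TX 2i ESCs and 1 to 86 reads in KSR-iPSCs, at least 8.24-fold higher, and Myc rose by 2.44 (adjusted p = 0.0259). Apcdd1, a membrane inhibitor of Wnt, differed by -2.42 (adjusted p = 8.60e-06) and Tnfrsf19 by -1.71 (adjusted p = 0.00165). Of 9 genes of the destruction complex, 3 were lower and 0 higher: Gsk3b at -0.96 (adjusted p = 7.68e-05), Amer1 at -1.04 (adjusted p = 0.00209) and Btrc at -0.57 (adjusted p = 0.0160), with a median of 0.06. Of 11 nuclear partners, Tcf7l2 was higher, Pygo1 was lower by 1.54 (fitted difference -1.54, adjusted p = 0.00111) and 9 were not called, with a median of -0.04.

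Markers of the cell states in which these genes also act moved in part beside them, and their counts stand beside the same 1615 higher and 1757 lower of 14632 genes tested. Of 10 genes of the naive state, 3 were lower in KSR-iPSCs, Nanog at -1.78, Tfcp2l1 at -1.57 and Pou5f1 at -0.42, with a median of -0.61. Of 10 genes of the primitive streak, the territory of T, 6 were tested, of which Foxa2 was higher by 3.23 and Gsc differed by -3.27. Of 5 genes of the trophectoderm, the territory of Cdx2, 4 were tested, with Krt7 higher by 2.99 and Tfap2a at -1.69. Of 5 endoderm genes Gata4, Gata6 and Sox7 were higher, by 2.103, 3.98 and 5.54, and their list summed to 84.6 to 110 RPM in M KSR3, 12.2 to 44.6 RPM in the other KSR lines and 3.65 to 8.45 RPM in TX 2i ESCs. Of 12 fibroblast genes, Col3a1, Dcn and Pdgfra were higher and Thy1 was at -1.57, with a median of 0.40, or 0.45 with bounds for genes without reads in TX 2i ESCs. Col3a1, Dcn, Lum, S100a4 and Prrx1 had 0 reads in all TX 2i ESC libraries, and Col3a1 had 3 to 428 reads in KSR-iPSCs. Of 7 targets of ERK, the kinase below MEK, 6 were higher, among them Spry4 by 9.22, Etv4 by 6.63 and Egr1 by 5.77, with a median of 5.30. The part of these cell states and of the MEK inhibitor in the differences of the 9 genes was not tested.

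Reads over SNPs between BL6 and CAST allowed the maternal share to be measured, with BL6 maternal and CAST paternal. They made up 17.7 to 19.9% of the reads, and a library entered with at least 5 allelic reads of a gene. Tcf7l1 had an extreme share in each female line, with opposite parents. In F KSR2 the maternal and paternal reads were 542 and 6, 357 and 1, and 234 and 12, or 98.9, 99.7 and 95.1% maternal. The other genes of chromosome 6 were at 98.6, 98.6 and 93.2% in the same libraries, so the share of Tcf7l1 was that of its chromosome. In F KSR4 the reads were 2 and 68, 2 and 83, and 122 and 218, or 2.86, 2.35 and 35.9% maternal, while the rest of chromosome 6 was at 52.0, 52.7 and 51.5%. In the remaining 12 libraries Tcf7l1 was at 53.1 to 72.0% maternal. F KSR4 libraries 1 and 2, with almost no maternal reads, were also those with the low levels of 4.94 and 5.04 log2 RPM.

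**Figure D4:**
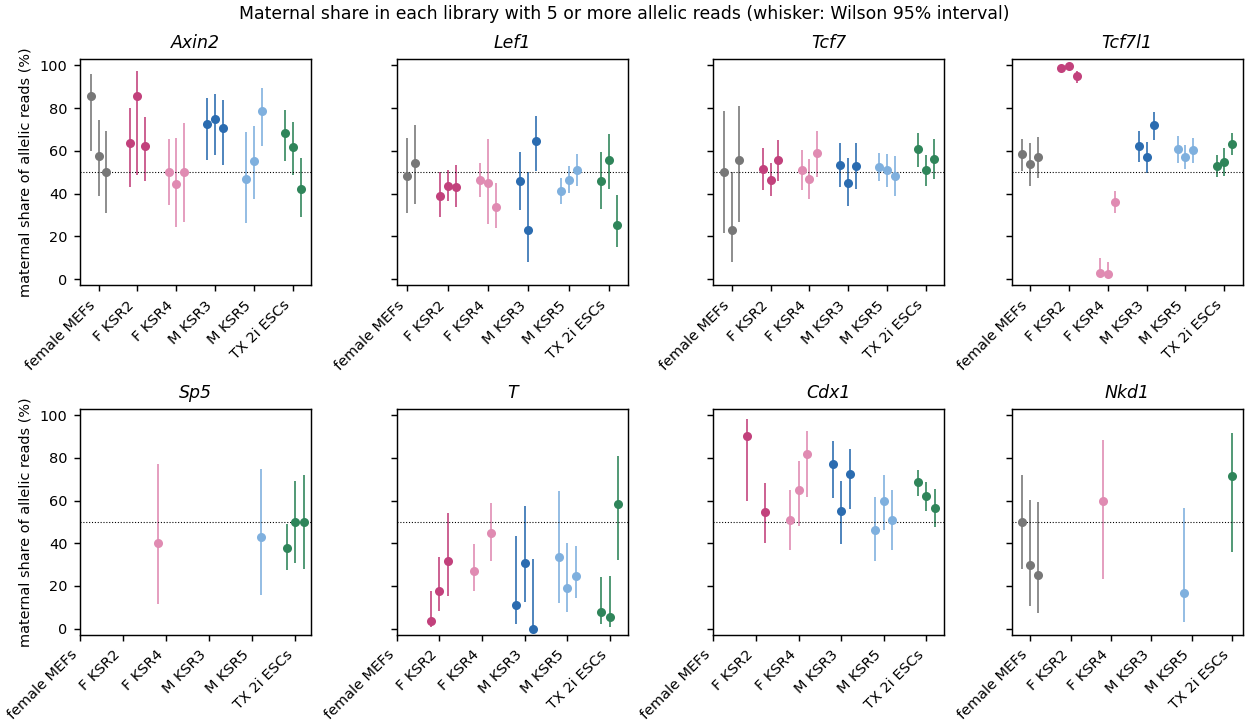
Maternal share of allelic reads (percent, vertical axis) of 8 of the 9 genes in each library with at least 5 allelic reads of the gene, by group, with whiskers for the 95% Wilson interval and a dotted line at 50%. Tcf7l1 lies above 95% in F KSR2 and near 2% in F KSR4 libraries 1 and 2, and T lies below 50% in 13 of 14 libraries.

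A scan over all genes asked where else this happened in F KSR4. Of 7283 genes with at least 20 allelic reads in libraries 1 and 2 and 25 to 75% maternal reads in MEFs, M KSR3, M KSR5 and TX 2i ESCs, 3 had under 10% maternal reads in both libraries, and they were Tcf7l1 and its neighbours Tgoln1 and Kcmf1. The scan and the neighbours were chosen after these values were seen. Elmod3, Retsat, Tgoln1, Tcf7l1 and Kcmf1 lie in this order within 334 kb, at chr6:72565922-72899979. Tgoln1 was at 4.55 to 4.88 log2 RPM in F KSR4 and at 5.26 to 7.26 in the other 15 libraries. Elmod3 instead was at 5.40 to 6.80 log2 RPM in F KSR4 against 1.94 to 3.13 elsewhere, with 545 maternal and 13 paternal reads in library 1, 234 and 14 in library 2 and 286 and 9 in library 3. Retsat had 0, 0 and 8 maternal reads beside 91, 127 and 105 paternal ones, but was at 6.90 to 23.5% maternal in the 12 libraries outside the female lines too. The flanking genes Capg, Tmsb10 and Suclg1 had both alleles in F KSR4. All 3 libraries of F KSR4 thus shared the high maternal Elmod3, while library 3 kept maternal reads of Tcf7l1, of Tgoln1 (48 of 105, or 45.7%) and of Kcmf1 (14 of 57, or 24.6%), and the state of the DNA was not measured here.

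**Figure D5:**
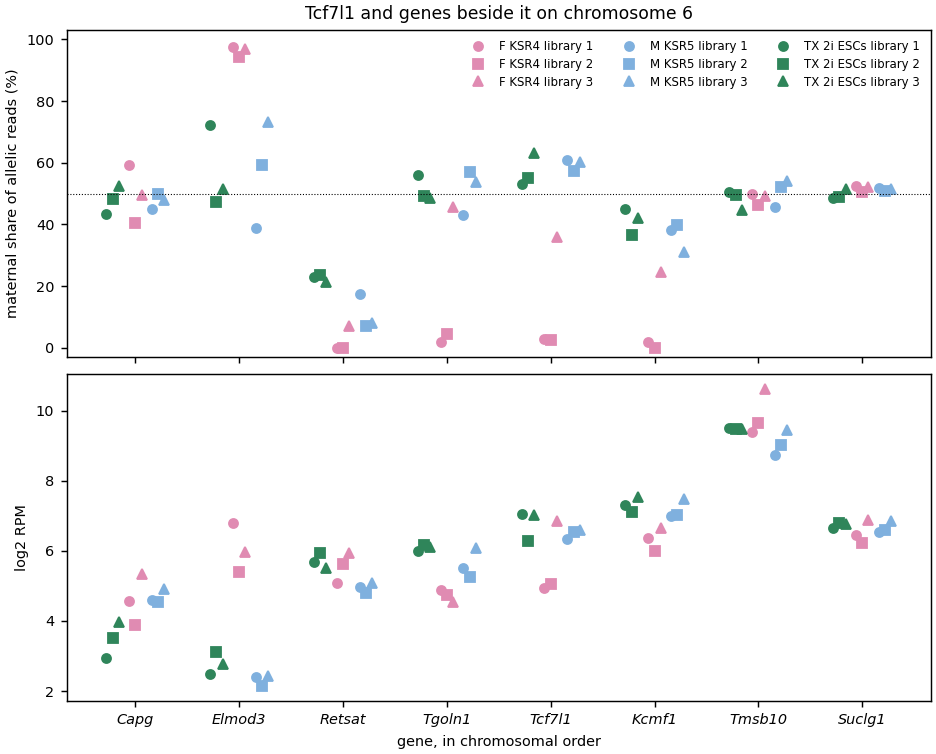
Maternal share of allelic reads (percent, upper panel) and level (log2 RPM, lower panel) of Tcf7l1 and 7 genes beside it, in chromosomal order (horizontal axis), in each library of F KSR4, M KSR5 and TX 2i ESCs. In F KSR4 libraries 1 and 2 the share is under 5% at Retsat, Tgoln1, Tcf7l1 and Kcmf1 and over 90% at Elmod3, whose level is raised, between flanking genes with both alleles.

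T was read mostly from the paternal CAST allele. Over the 14 libraries with at least 5 allelic reads it had 84 maternal and 267 paternal reads, or 23.9% maternal, 13 libraries were below 50%, and in 9 the 95% Wilson interval was too. Genes within 5 Mb of T were at 47.5 to 57.7% in the 6 groups. Cdx1 leaned to the maternal allele, with 62.2% over the same number of libraries, 13 of them above 50% and 6 with their interval above it, where its neighbours were at 52.4 to 53.9%. Axin2 was at 61.7% over 18 libraries, with 12 above and 3 below 50% and 6 intervals above it. In M KSR3 Axin2 had 24 and 9, 24 and 8, and 22 and 9 maternal and paternal reads, and its neighbours were at 67.9% there against 50.7 to 52.8% in the other groups. Lef1 was at 44.7% and Tcf7 at 51.8%, and Sp5, Cdx2 and Nkd1 reached 5 allelic reads in 5, 1 and 6 libraries. Since the BL6 parent was always the mother, effects of strain and of parent on these shares cannot be told apart.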

How the data were processed

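The 9 genes and all gene lists were chosen with earlier results of these data known. The authors trimmed the strand-specific polyA reads with Trim Galore 0.6.1, aligned them to GRCm38 with HISAT2 2.1.0, counted them on genes in SeqMonk 1.47 and deposited log2 RPM, in 4 columns per library (all reads, reads without an informative SNP, maternal and paternal reads). The annotation version is not given in the sources used here. The supplement names RPKM, but the low values of each column are whole multiples of 1 step whatever the gene's length, so the deposited log2 values carry no length correction. Reads were recovered from the step of 1 read per column, and whole numbers (within 0.05 read) made up 99.97 to 100% of each library. Counting noise limits genes near 1 read, and replicates differed by 2.97 to 78.6 times that noise (median squared difference).

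Groups were compared with limma 3.58.1 (R 4.3.3) on the log2 values as deposited (intensity trend, Benjamini-Hochberg adjustment and a threshold of 0.05), for genes above 0 in at least 3 libraries. A fit of 18 libraries with a mean per group gave every contrast except female against male lines, which was fitted on the 12 KSR-iPSC libraries. The comparison of KSR-iPSCs with TX 2i ESCs was also run on simulated reads. These had the same dispersion for all genes and changes set only in genes with more reads. That run does not cover genes near 1 read or replicates as uneven as those of Sp5. Other tables and the figures were made with numpy 2.4.6, scipy 1.17.1, pandas 2.3.3 and matplotlib 3.10.9 under Python 3.11.15. Allelic shares have 95% Wilson intervals, ratios of reads have exact 95% intervals, and both cover counting error only. A count of 0 allows up to 3 reads, the floor of every fold bound. All 9 genes are described, further genes are those called in the chosen lists, and the 3 nearest profiles were taken for Axin2, Tcf7l1 and T. Alternatives were a pseudocount of 1 RPM, no filter and a stricter filter, median-ratio scaling, limma-voom on the recovered reads, fits of fewer libraries, a replicate block, an allelic minimum of 10 reads and leaving out each library. DNA methylation samples of the series were not analysed here.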

Additional observations from a re-analysis of the deposited data

Results flagged for a closer look

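Among the 6 female KSR-iPSC libraries, F KSR4 library 2 was far from the others for Lef1, at 1.71 log2 RPM, and for T, at -1.85 log2 RPM, by Dixon's test of the highest or lowest value. The gap to the nearest library was 0.678 of the range for Lef1 and 0.803 for T. Of the 18 sets of 6 libraries examined, 2 had such a library, and chance gives about 1 in 20. M KSR3 differed from M KSR5 in Lef1, by -2.82, and in Tcf7, by -0.96, on the log2 scale, the only differences past the threshold of limma among the 54 pairs of gene and line pair tested.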

How the results depend on the processing

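Axin2, Sp5 and Cdx1 were called lower in KSR-iPSCs than in TX 2i ESCs with another pseudocount, filter, scaling, set of libraries or model (7 alternatives), and 2 to 4 genes were called when single libraries were left out. Without the filter 1 gene was called between M KSR3 and M KSR5. Leaving out single libraries gave 3 to 11 calls over the 4 lines against TX 2i ESCs (9 with all libraries, 3 without TX 2i ESC library 1 and 4 without library 2), 1 to 4 for the female lines (1 without TX 2i ESC library 1), 0 to 1 between F KSR2 and F KSR4 (1 without library 3 of either) and 0 to 2 between M KSR3 and M KSR5. Without F KSR4 library 2 and M KSR5 library 3, chosen after the data were seen, 2 genes were called between the sexes, and T became 0.23 between KSR-iPSCs and TX 2i ESCs, Sp5 -1.35 and T -0.89 between F KSR2 and F KSR4. With a pseudocount of 1 RPM, T became 0.076 and Cdx2 0.038 between KSR-iPSCs and TX 2i ESCs. These sign changes are of differences that were not called, and the cause was not tested.

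Sign changes when single libraries were left out were also limited to differences not called with all libraries. Between KSR-iPSCs and TX 2i ESCs, T ranged from -0.29 to 0.37 and Nkd1 from -0.27 to 0.11. For the female lines, T ranged from -0.20 to 1.08 and Nkd1 from -0.33 to 0.042. Between the sexes, Lef1 ranged from -0.49 to 0.57, Tcf7 from -0.093 to 0.19, Tcf7l1 from -0.15 to 0.39 and Nkd1 from -0.28 to 0.046. Between F KSR2 and F KSR4, Axin2 ranged from -0.75 to 0.30, Tcf7 from -0.17 to 0.16, Sp5 from -1.35 to 1.77, T from -0.89 to 1.67 and Cdx2 from -1.77 to 0.27. Between M KSR3 and M KSR5, Axin2 ranged from -0.023 to 0.30, Cdx2 from -2.13 to 0.49 and Nkd1 from -0.41 to 0.20.

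Over all genes, 3372 calls between KSR-iPSCs and TX 2i ESCs fell to 2125 to 2154 without a TX 2i ESC library, and 2601 for the female lines to 1503 to 1571. Between the sexes 390 calls became 232 without the filter, 138 with the line as a random effect, 4 with the means of the 4 lines, 1523 in the fit of 18 libraries, 187 to 250 without certain single libraries and 665 without both named libraries. Between F KSR2 and F KSR4, 167 calls became 66 to 1660 without single libraries of these lines and 311 without both named libraries. Between M KSR3 and M KSR5, 656 became 145 to 585 without single libraries and 1182 without both named libraries. Median-ratio scaling split the calls between the sexes into 279 higher and 118 lower in female lines, against 216 and 174. The medians subtracted over all libraries were -0.23 to -0.19 in MEFs and -0.23 to 0.061 in F KSR4. In the other groups they were 0.016 to 0.12. Correlations of deviations from group means ran from -0.20 to 0.38 over 45 pairs of the same replicate number (median 0.039, against -0.010 for other pairs). Yet 13 of 18 libraries correlated best with a library of the same number, a hint from the data and not from the design. The sources name no pairing by replicate number, and whether libraries of the same number were handled together was not tested. With a replicate block, 3 of the 9 genes were called between KSR-iPSCs and TX 2i ESCs, 10 pairs of gene and line, and 282 genes in all between F KSR2 and F KSR4. Cdx2 and Sp5 were near 1 read in many libraries, where depth limits what can be seen.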
